A study of Mus musculus with 2 samples.

Results

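The 10 genes described here encode the Runx factors Runx1, Runx2 and Runx3, their shared partner subunit Cbfb, and the Ets family factors Ets1, Elf1, Elf4, Fli1, Gabpa and Etv6. They were chosen by name, and all 10 had splice junctions that could be named, out of 9696 gene symbols with a named junction. Their junctions were compared in splenic CD4+ T cells, the helper lymphocytes, of male C57BL/6JJcl mice. The stimulated library came from cells kept for 4 h on plates coated with antibodies to CD3e (2 ug/ml), which sits in the T cell receptor complex, and to CD28 (2 ug/ml), which gives costimulation. The mock library came from cells handled alike with no antibody. The cells came from 4 mice pooled and were enriched magnetically, and 1 library was made per group. There is thus no measure of spread between samples, no p-value is given, and each difference is one between these 2 libraries.

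Runx proteins bind DNA through the Runt domain and do so stably only when paired with CBF-beta, the product of Cbfb, which does not touch DNA itself. In T cells they are known for silencing Cd4 in the CD8 lineage and for acting on cytokine genes. Ets factors bind sites with a GGAA core through the Ets domain. Some of them, such as Ets1 and Gabpa, mostly activate, while Etv6 and Erf mostly repress, and several keep lymphocytes alive or at rest.

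Each value is a number of junction-crossing reads. There were 1341197 such reads in the stimulated library and 1147232 in the mock library. Intervals are exact (Clopper-Pearson or Poisson) 95% intervals. They hold only the error of counting separate reads, and are too narrow where amplified reads stem from the same molecule. A gene was called higher when its ratio, stimulated over mock, of reads per 1000000 junction reads (rpm) was 2 or more, and lower when it was 2-fold or more below 1. A call also needed 20 or more reads in the libraries together and an interval without 1. By this rule 17.1% of 7201 genes were higher and 25.1% were lower, and their median log2 ratio was −0.21. Scaling by the trimmed mean of M values moved that median to 0.03 and the share of higher genes among those called to 52.4%, against 40.6% with the main scaling. All 10 T cell marker genes had at least 20 reads, and their summed level was 4558 rpm in the stimulated library and 5050 rpm in the mock library. Among them Cd4 (285 stimulated and 650 mock reads) and Cd247 (350 and 955) were lower, and the other 8 met neither condition. B cell markers summed to 129.7 rpm in the stimulated library and 176 rpm in the mock library, with named junctions for all 10 of them. Only 5 of the 10 had at least 20 reads. Of those 5, Blk (16 stimulated and 28 mock reads) was lower and the other 4 met neither condition. Myeloid markers summed to 49.2 and 45.3 rpm over 7 genes, of which 3 had at least 20 reads. Of the 3, Csf2ra (27 stimulated and 5 mock reads) and Cybb (19 and 5) were higher, and Cd68 (11 and 10) met neither condition. Lyz2 and Flt3, both below the minimum, had 0 stimulated reads and 15 and 8 mock reads. Natural killer cell markers had 3 and 2 reads in all. In a bulk library, fewer cells of a type and less RNA per cell cannot be told apart.

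Of the 10 genes, Runx1 was higher, Ets1, Elf1 and Fli1 were lower, and the other 6 met neither condition. The share called higher was therefore 1 of 10 beside the 17.1% of all genes, and the share called lower 3 of 10 beside 25.1%, so the counts of the 10 genes lay near those of the whole table. Their median log2 ratio was −0.93.

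**Figure D1:**
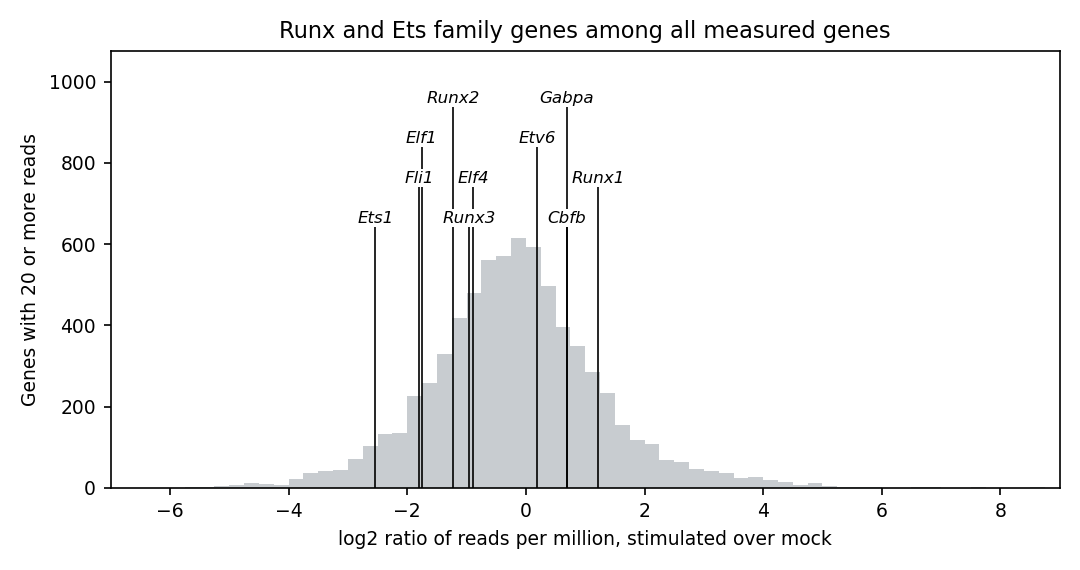
Number of genes by log2 ratio of rpm, stimulated over mock, for the 7201 genes with 20 or more reads. Vertical lines mark the 10 Runx and Ets family genes, from Ets1 at −2.54 to Runx1 at 1.22.

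The levels of the 10 genes can be set side by side only per junction, since a gene with more named junctions collects more reads. On this scale, in rpm per named junction, the stimulated library had Cbfb at 26.9 (23.7 to 30.5) and Ets1 at 26.2 (23.4 to 29.2), whose intervals overlapped. Runx1 at 20.3 and Gabpa at 18.3 came next and overlapped too. They were followed by Elf1 at 14.4, Elf4 at 9.97, Runx3 at 4.47, Fli1 at 3.63, Etv6 at 3.31 and Runx2 at 0.870, and among these the intervals of Runx3 and Fli1 and of Fli1 and Etv6 overlapped. That of Elf1 also overlapped with that of Gabpa. In the mock library Ets1 stood far above the others at 152 (145 to 160), and Elf1 was second at 48.9 (44.5 to 53.7), both apart from the next gene. Elf4 at 18.5, Cbfb at 16.7, Fli1 at 12.6, Gabpa at 11.3 and Runx1 at 8.72 each overlapped with the next gene, the last of them with Runx3, also at 8.72. Runx3 was apart from Etv6 at 2.91, which overlapped with Runx2 at 2.03. Rarely used junctions count as much as others in this measure, so it lowers genes with several of them.

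**Figure D2:**
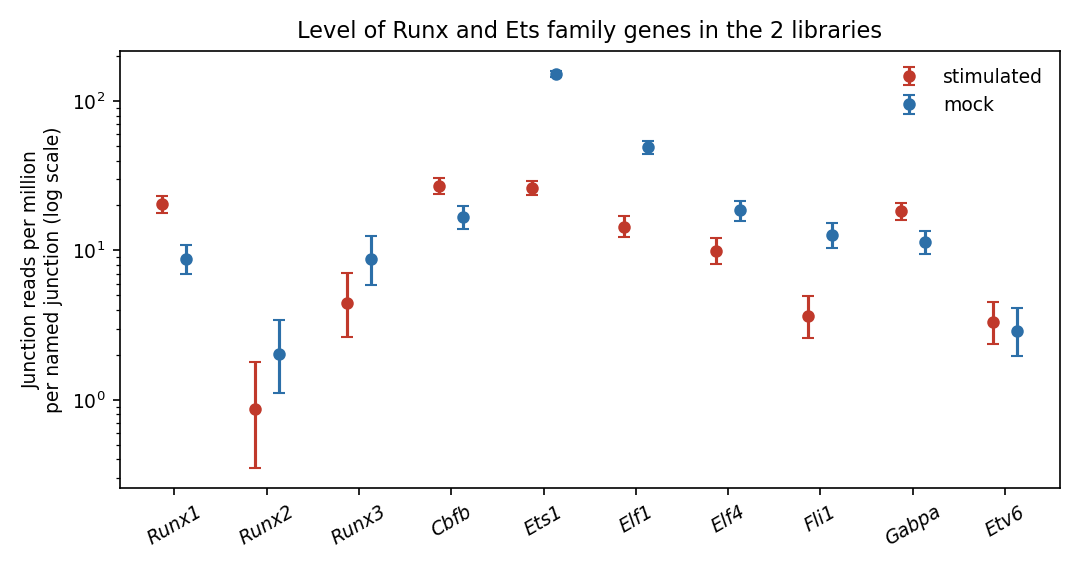
Level of each gene in rpm per named junction on a log scale, stimulated library in red and mock library in blue. Points are values of 1 library and bars are exact 95% counting intervals. Ets1 lies at 26.2 in the stimulated library, against 152 in the mock library.

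Runx1, the Runx gene best known from blood stem cells and T cell development, had 218 reads in the stimulated library, against 80 in the mock library. It was 2.33-fold higher (1.80 to 3.05). Of its 8 named junctions, which lie within chr16:92606370-92826178 of mm9 on the minus strand, 6 had a higher ratio and 2 had one just under 1. All 8 had at least 10 reads, with ratios between 0.927 and 4.85.

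Runx3, which in T cells is known for the CD8 lineage and for interferon gamma production, had 18 stimulated reads and 30 mock reads. Its ratio was 0.513 (0.269 to 0.951), just outside the limit for a call. All 3 of its named junctions, within chr4:134711354-134731214 of mm9 on the plus strand, had a lower share in the stimulated library, at 5, 8 and 5 reads there and 10, 12 and 8 reads in the mock library, in transcript order. Cd8b1, the CD8 T cell marker with a named junction, had 5 stimulated and 16 mock reads, and its part in the Runx3 values was not tested. Runx2, the factor of bone formation, had 7 stimulated reads and 14 mock reads over 6 junctions within chr17:44745333-44872181 on the minus strand, and no junction with more than 4 reads in either library. Its ratio of 0.428 had an interval of 0.146 to 1.13, so a difference was not detectable at this depth.

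The makeup of the Runx reads differed between the libraries. These shares are of raw reads over 8 junctions of Runx1, 6 of Runx2 and 3 of Runx3, so they compare the libraries and not the levels of the genes, and per junction Runx1 and Runx3 both stood at 8.72 rpm in the mock library. Runx1 gave 89.7% (85.2 to 93.2) of the 243 Runx reads of the stimulated library, and 64.5% (55.4 to 72.9) of the 124 of the mock library. Runx3 gave 7.41% (4.45 to 11.5) and 24.2% (17.0 to 32.7), again with intervals that did not overlap. Shares of 1 sum depend on each other, so this is not a separate result, and Runx3 itself was not called. Summed over the 3 genes the ratio was 1.68 (1.34 to 2.10).

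Cbfb, the partner that all 3 Runx proteins share, had 253 stimulated reads and 134 mock reads. Its ratio was 1.62 (1.30 to 2.01) and met neither condition, although all 7 junctions, on the plus strand of chromosome 8 from base 107694954 on, had a higher share in the stimulated library. Its first junction, across an intron of 252 bases, had 41 stimulated reads and 11 mock reads, a ratio of 3.19 (1.61 to 6.88). The other 5 junctions with at least 10 reads had ratios between 1.25 and 1.94, all with intervals that overlapped that of the first.

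Runx genes are known for a distal and a proximal promoter, which give proteins with different first residues. In Runx1, 2 junctions can come only from transcripts of the distal promoter. The junction from exon 2 of the distal form to exon 3, across an intron of 129851 bases, had 50 stimulated reads and 18 mock reads, a ratio of 2.38 (1.36 to 4.33). The junction between its exons 1 and 2 had 13 and 12 reads, a ratio of 0.927 (0.390 to 2.22). Together both distal junctions had 63 stimulated reads and 30 mock reads (ratio 1.80, 1.15 to 2.87), and the other 6 junctions had 155 and 50 (ratio 2.65, 1.92 to 3.72). These intervals overlapped. A transcript from the proximal promoter of Runx1 has no junction of its own, so its use could not be counted. In Runx3, neither first intron of the coding forms was among the named junctions, which gives them 0 reads in either library, and the 3 named junctions all lie downstream. For scale, 3 reads, the count set in place of 0 in ratios, equal 2.24 rpm in the stimulated library and 2.61 rpm in the mock library. The first introns of the coding forms of Runx2 had 0 stimulated reads and 1 mock read.

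The promoter windows of Runx1 are shown because the data bear on its distal start site. They are from RefSeq on GRCm38.p6, minus strand, 250 bases before to 50 after the start. Capitals mark TGTGGT, the core letters of the Runx site, or its reverse complement ACCACA, and CCGGAAG, an Ets site, or its reverse complement CTTCCGG. Both strands were searched, and these letters overlap in none of the windows shown.
Runx1 distal, chr16:92826025-92826324: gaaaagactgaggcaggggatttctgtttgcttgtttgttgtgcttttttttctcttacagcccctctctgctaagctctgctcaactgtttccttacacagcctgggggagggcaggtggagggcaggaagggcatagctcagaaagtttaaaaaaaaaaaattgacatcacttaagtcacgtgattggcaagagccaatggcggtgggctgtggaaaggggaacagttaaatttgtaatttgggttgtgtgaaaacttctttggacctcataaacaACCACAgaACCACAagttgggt
Runx1 proximal, chr16:92697280-92697579: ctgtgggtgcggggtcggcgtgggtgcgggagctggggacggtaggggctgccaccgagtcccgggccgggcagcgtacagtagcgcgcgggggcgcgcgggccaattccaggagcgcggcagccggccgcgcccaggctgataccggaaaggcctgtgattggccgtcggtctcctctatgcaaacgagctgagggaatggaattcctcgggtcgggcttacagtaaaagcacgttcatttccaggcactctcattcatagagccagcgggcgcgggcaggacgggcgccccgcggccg
The distal window held the Runx letters at 2 places, next to each other, and the proximal window held neither motif. In the listed window of Runx2 and the upstream window of Runx3 the same pair recurred as an identical run, ACCACAGAACCACA, on the strand of the gene. It is printed in capitals below with the bases around it.
Runx1 distal, from base 29 after the start: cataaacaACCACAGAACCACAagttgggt
Runx2, from base 24 after the start: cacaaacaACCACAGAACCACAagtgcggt
Runx3 upstream, from base 134 before the start: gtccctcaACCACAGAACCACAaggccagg
This run, chosen after the windows were read, was found in 4 of 32851 promoter windows of the table on either strand. Besides the 3 Runx genes it was in the window of Gm16225, a gene on the minus strand that starts beside Runx3. That window overlaps the one of Runx3, so this is the same run counted again. Among all windows 16.8% held TGTGGT or ACCACA and 8.86% held CCGGAAG or CTTCCGG. Of the 12 windows listed for 8 of the 10 genes, 3 held the Runx letters, all of Runx genes, and 1 held the Ets letters, that of Gabpa. A match of letters is not a measured binding site. Ets1 and Fli1 were not among the windows used.

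**Figure D3:**
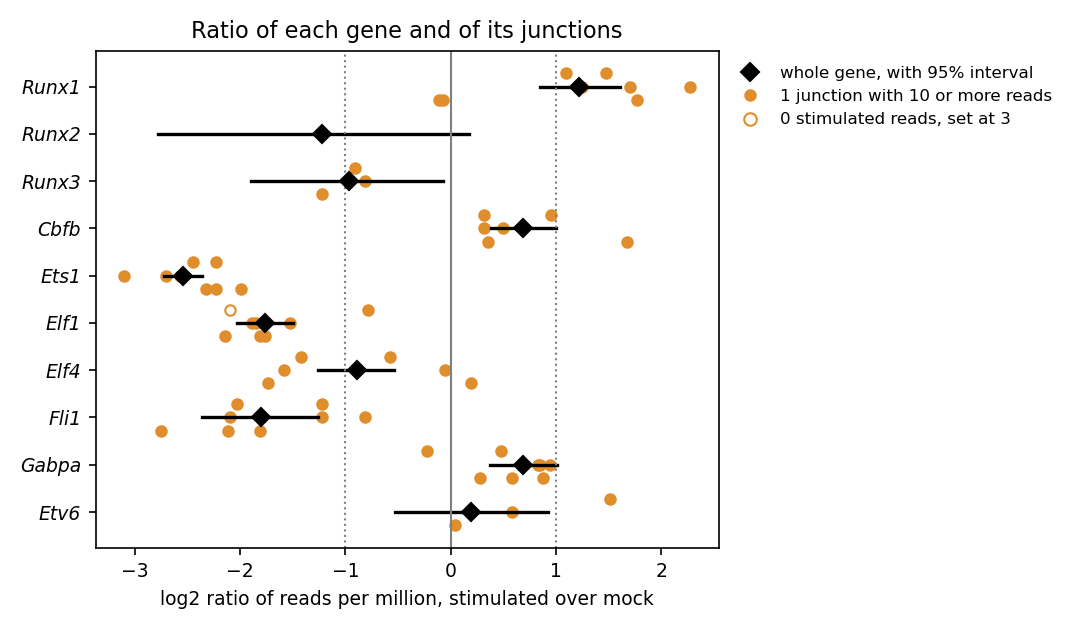
log2 ratio of rpm, stimulated over mock. Black diamonds with lines are whole genes with exact 95% intervals, orange points are single junctions with 10 or more reads, and dotted lines mark a fold of 2. All plotted junctions of Ets1, Elf1 and Fli1 lie left of 0.

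Ets1, the founding member of its family and an abundant factor of resting T cells, showed the lowest ratio of the 10 genes. It had 316 stimulated reads, against 1572 mock reads, and was 5.82-fold lower (5.15 to 6.58). Of all 7201 genes, 4.90% had a lower ratio. Its 9 named junctions, within chr9:32504051-32561797 of mm9 on the plus strand, were all lower. The 8 with at least 10 reads had ratios between 0.116 and 0.251, so the lower level was seen from the first intron (54 stimulated and 184 mock reads) to the last (35 and 257).

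Elf1, an Ets factor that acts on T cell receptor chain and interleukin 2 receptor genes, had 155 stimulated reads and 449 mock reads. It was 3.39-fold lower (2.82 to 4.09), and all 8 junctions, within chr14:79936230-79979991 on the plus strand, were lower, with ratios between 0.226 and 0.579. Elf4, its close relative, known for holding T cells in quiescence, had 107 stimulated and 170 mock reads over 8 junctions within chrX:45768624-45807048 on the minus strand. Its ratio was 0.538 (0.419 to 0.690), short of the limit for a call. The Elf4 junctions did not all lie alike: those from exon 3 to 4 (13 stimulated and 37 mock reads), from exon 4 to 5 (9 and 23) and from exon 8 to 9 (17 and 39) had ratios of 0.301, 0.335 and 0.373. Those from exon 6 to 7 (16 and 12) and from exon 7 to 8 (18 and 16) had ratios of 1.14 and 0.962, and every one of these 5 intervals overlapped with the others.

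Fli1, an Ets factor of blood vessels, megakaryocytes and lymphocytes, had 39 stimulated reads and 116 mock reads. It was 3.48-fold lower (2.40 to 5.14), and all 8 junctions, within chr9:32231891-32348775 on the minus strand, were lower, with 3 to 8 stimulated reads and 8 to 26 mock reads each. B cell markers summed to 129.7 stimulated and 176 mock rpm, and Itga2b, the only megakaryocyte and platelet marker with a named junction, had 8 and 16 reads. Their part in the Fli1 result was not tested. Fli1 and Ets1 are neighbours: in the RefSeq table of GRCm38.p6 no coding gene lies between them, and they lie on opposite strands.

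Gabpa, which carries the DNA-binding domain of GA-binding protein and serves mitochondrial and Il7r transcription, had 245 stimulated reads and 130 mock reads. Its ratio was 1.61 (1.30 to 2.01), nearly that of Cbfb, and met neither condition. Of its 10 junctions, within chr16:84835269-84860619 on the plus strand, 9 had a higher share in the stimulated library, and the last one, with 79 stimulated and 38 mock reads, had a ratio of 1.78 (1.19 to 2.69). Etv6, a repressor with a pointed domain, had 40 stimulated and 30 mock reads over 9 junctions within chr6:133986157-134216275 on the plus strand, and a ratio of 1.14 (0.693 to 1.90). No junction of Etv6 had more than 10 reads in either library, and 5 had a higher and 4 a lower share.

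The part of Ets1 in all Ets reads, again of raw reads, was smaller in the stimulated library. Over the 18 Ets family genes with named junctions, Ets1 gave 21.5% (19.4 to 23.7) of 1468 stimulated reads and 54.1% (52.3 to 56.0) of 2904 mock reads. Gabpa gave 16.7% (14.8 to 18.7) and 4.48% (3.75 to 5.29). That share also depends on the fewer Ets1 reads in the sum, and the ratio of Gabpa itself was 1.61. The summed Ets rpm had a ratio of 0.432 (0.406 to 0.461), and without Ets1 it was 0.740 (0.683 to 0.801).

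Alternative junctions of the 10 genes were compared as shares of the reads at a shared splice site. A site was tested with at least 20 reads in each library, and counted where a share differed by 20 percentage points or more with intervals that did not overlap. Of 7 tested sites in these genes 0 were counted, beside 3.42% of the 1140 sites tested in all genes. The joined exons are printed 5′ to 3′ as cDNA from GENCODE M21, 15 bases on each side, with the downstream exon in capitals, because each pair shows what the kept and the skipped form read.
Runx1, exon 6 kept: cccgagaaccccgaaGACATCGGCAGAAAC
Runx1, exon 6 skipped: cccgagaaccccgaaATGCCAGGCAGATCC
Ets1, exon 6 kept: ggagagccagtcgtgGTAAACTCGGGGGCC
Ets1, exon 6 skipped: ggagagccagtcgtgGAAGTGGGCCGATCC
Ets1, exon 3 kept: tgggaatccccaaagACCCCCGGCAGTGGA
Ets1, exon 3 skipped: tgggaatccccaaagAGGATGTGAAACCAT
Elf1, exon 4 kept: acatcacccttacagTTGAGGCTTCTTGTC
Elf1, exon 4 skipped: acatcacccttacagATAATAATATATTTA
Exon 6 of Runx1, 192 bases long, lies after the Runt domain. Its skipping junction took 10 of 50 reads at the acceptor of exon 7 in the stimulated library, 20% (10 to 33.7), and 9 of 25 in the mock library, 36% (18 to 57.5). Counted at the donor of exon 5 the shares were 22.7% (10 of 44) and 60% (9 of 15), but that site had too few mock reads to be tested and the intervals overlapped.

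In Ets1, exon 6 has 261 bases, and the annotated form without it has 353 codons in place of 440. That shorter protein is known to lack part of the region that dampens DNA binding. The skipping junction took 4.80% (1.78 to 10.2) of 125 stimulated reads and 4.06% (2.72 to 5.82) of 689 mock reads at the donor of exon 5. At the acceptor of exon 7 the kept form had 6 of 12 and 24 of 52 reads, far fewer than the 119 and 661 reads into the same exon, so the 2 ends of this exon give different shares in both libraries. A junction that skips exon 3 is not in the annotation used, though both its ends are annotated splice sites. It had 6 of 20 stimulated reads at the donor of exon 2, 30% (11.9 to 54.3), and 40 of 111 mock reads, 36.0% (27.1 to 45.7). Both exons keep the reading frame when left out, and neither share differed between the libraries beyond counting error.

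Skipping of Elf1 exon 4, of 111 bases, had 0 of 38 stimulated reads at the acceptor of exon 5, with an upper limit of 9.25%, and 11 of 155 mock reads, 7.10% (3.60 to 12.3). Counted at the donor of exon 3 the shares were 0 of 14, with an upper limit of 23.2%, and 11 of 54, 20.4% (10.6 to 33.5), but that site had too few stimulated reads to be tested. The intervals overlapped at both sites. In Cbfb, exon 5 ends at either of a pair of donors 31 bases apart. The extension shifts the frame, so that the annotated forms have 182 codons with it and 187 without it. It is shown in capitals.
Cbfb, short exon 5: cgggaggaaatggaggcaagaagacagcaa
Cbfb, long exon 5: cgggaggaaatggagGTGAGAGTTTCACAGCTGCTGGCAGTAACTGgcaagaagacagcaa
The long form took 55.1% (45.2 to 64.8) of 107 stimulated reads and 50% (35.8 to 64.2) of 52 mock reads at the acceptor of exon 6. Skipping of exon 5 had 5 of 56 reads at the donor of exon 4 in the stimulated library, 8.93% (2.96 to 19.6), and 0 of 34 in the mock library, with an upper limit of 10.3%.

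**Figure D4:**
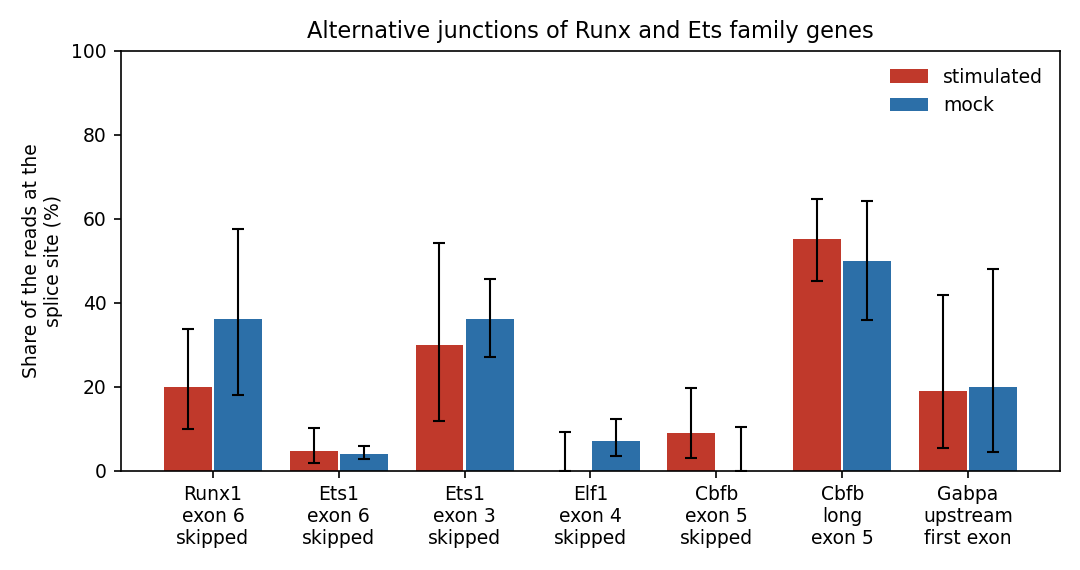
Share of the reads at a splice site taken by each alternative junction, in percent, stimulated library in red and mock library in blue. Bars are values of 1 library and error bars are exact 95% intervals. All 7 pairs of intervals overlap, and the Gabpa pair rests on 21 stimulated and 15 mock reads. The 7 pairs are not the 7 tested sites. The Gabpa site had too few mock reads to be tested, and the junction that skips Ets1 exon 3 is not a named one.

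Of 20 other Ets factors listed, 12 had named junctions and 8 had at least 20 reads. Of these 1 was higher and 0 were lower, beside 17.1% and 25.1% of all genes, with a list median log2 ratio of 0.10. Erf, a repressor, was the highest at 2.33-fold (1.45 to 3.84), with 68 stimulated reads and 25 mock reads. Elf2, the relative of Elf1 and Elf4, was the lowest at 0.544 (0.397 to 0.741), with 70 and 110 reads. Ets2, the closest relative of Ets1, had the most reads, 130 and 75, and a ratio of 1.48 (1.11 to 2.00), so the interval of Ets2 lay far above that of Ets1. Spib, a factor of B cells, had 3 stimulated and 13 mock reads, below the minimum.

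Of 18 partner and cofactor genes of these factors, 14 were measured. Of the 14, 2 were higher and 2 lower, beside 17.1% and 25.1% of all genes, and the list median log2 ratio was −0.66. Prmt1, an arginine methyltransferase that modifies Runx1, was the highest at 3.73-fold (2.89 to 4.87), with 323 stimulated and 74 mock reads. Tle1, a Groucho corepressor, was 2.57-fold higher (1.37 to 5.09). Kmt2a, a histone methyltransferase, had the most reads and the lowest ratio, with 354 and 875 reads (2.89-fold lower), and its cofactor Men1 was 2.58-fold lower. Gabpb1, which encodes the activating partner of Gabpa, had 103 stimulated and 60 mock reads and a ratio of 1.47 (1.06 to 2.05), while Gabpb2 had 45 and 59 (0.652, 0.433 to 0.978).

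Of 23 genes that Runx factors are known to bind or regulate in T cells, 18 were measured. Of the 18, 8 were higher and 6 lower, beside 17.1% and 25.1% of all genes. The list median log2 ratio was 0.33, but −0.38 from each gene's most-used junction, where fewer genes of the whole table reached the minimum. Il2, the T cell growth factor gene, was the highest, with 92 stimulated and 0 mock reads, which is 26.2-fold when the mock library is set at 3 reads, with an exact lower limit of 20.9 for the ratio of the counts as they are. Il7r was the lowest, with 73 and 1895 reads, and Tcf7 had the most reads, 419 and 3717. Tbx21, which encodes the Th1 factor T-bet, had 172 and 11 reads (13.4-fold higher, 7.29 to 27.3), and Zbtb7b, which encodes the CD4 lineage factor ThPOK, had 15 and 36 (2.81-fold lower).

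Of 19 genes known to depend on Ets factors, 15 were measured. Of the 15, 6 were higher and 5 lower, beside 17.1% and 25.1% of all genes, and the list median log2 ratio was 0.38. This list shares Il7r, Il2rb, Il2, Tbx21 and Foxp3 with the list of Runx-regulated genes. Il2, Tbx21 and Foxp3 thus count as higher and Il7r as lower in both, so the lists are not separate results. Tnf was the highest, with 243 stimulated and 7 mock reads, Il7r again the lowest, and the kinase gene Lck had the most reads, 1605 and 1052 (1.31-fold, 1.21 to 1.41). The quiescence gene Klf2 was lower, with 84 and 752 reads, and Zap70, a kinase of the receptor, was 4.21-fold higher (3.73 to 4.77). Of the mitochondrial genes tied to Gabpa, 7 of 12 were measured, with a median log2 ratio of 0.24. In either direction 0 were called, beside 17.1% of all genes higher and 25.1% lower. Atp5b, which had the most reads and the highest ratio, had 1732 and 821 reads (1.80, 1.66 to 1.96), Sdhc was the lowest with 39 and 63 (0.530, 0.346 to 0.802), and Tfam, the mitochondrial transcription factor, had 62 and 34 (1.56, 1.01 to 2.44).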

How the data were processed

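Per the file headers, the authors deposited TopHat junction lists, in which the score column counts the reads across each junction. The submitters' processing notes name TopHat, Cufflinks and the build mm9. Their versions and settings: not given in the sources used here. A junction that an aligner drops or moves in 1 library changes that count, and reads inside exons are not seen. Counts were used as deposited.

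The annotation at hand was GENCODE M21 on GRCm38. Printed mm9 positions are those of the deposited junctions; annotated sites were set against them by the offset of a gene's named junctions. A junction got a gene's name when its intron length and its distance to at least 1 other junction equalled those within a transcript. Of 124183 junctions 95520 (76.9%) were named; 236 that fitted several genes equally were left out. With chromosomes exchanged in 21 rotations, 6 were named on average. The step was also tested on simulated data. Counts were summed per gene, scaled to 1000000 junction reads (rpm), and compared with exact binomial intervals (Python 3.11.15, scipy 1.17.1).

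The 10 genes and the lists were chosen with earlier results of these data known. Named genes are the 10 and, per list of factors, partners or targets, the highest, the lowest and the most-read; Tle1, Men1, Gabpb1, Gabpb2, Tbx21, Zbtb7b, Klf2, Zap70, Tfam, Spib and the single cell type markers were added after their values were seen. With 1 library per group no test across samples was possible.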

Additional observations from a re-analysis of the deposited data

How the results depend on the processing

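Runx1 stayed called higher, and Ets1, Elf1 and Fli1 lower, under the 12 other settings that give a call. Over these and the median of junction ratios, which gives no call, their log2 ratios in this order were 1.21 to 1.46, −2.70 to −2.30, −2.15 to −1.52 and −2.12 to −1.56. These included 3 other scalings, other read minimums, other sets of junctions, and intervals widened by the spread between junctions of a gene, 2.02 times the counting variance. A fold of 1.5 gave 3 members higher, with Cbfb and Gabpa, and 5 lower, with Runx3 and Elf4. The calls over all 7201 genes rose too, to 1680 higher and 2421 lower. Read from 1 junction per gene, the most-used, the other Ets factors had 0 higher, and the partners 1 higher and 4 lower. The Runx-regulated genes then had 5 higher with a median log2 ratio of −0.38, and the Gabpa-regulated genes 1 higher and 1 lower. In this setting fewer genes reached the read minimum, 5178 in place of 7201, so a list may hold fewer measured genes. Of the 5178 genes, 1046 were higher and 1217 lower. The cause of these shifts was not tested. The trimmed mean of M values put 1 Gabpa-regulated gene higher, and a minimum of 10 reads put 1 other Ets factor, Spib, lower. Junctions with both ends annotated were added as a setting after seeing the data. Etv6 ranged from −0.07 to 1.51, on few reads. Depth limits Runx2, Runx3 and Etv6 and all splice shares. No paired analysis was possible because each group has 1 library and the labels give no replicate numbers.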

Other observations

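Some junctions inside the 10 genes matched no annotated intron and are in none of the values of those genes. Runx1 had 12 of them on its own strand, with 18 stimulated reads and 2 mock reads together. Of these, 4 left the donor of exon 2 of the distal form, at mm9 position 92825833, for acceptors within the next intron, the most-read of them across 40520 bases with 2 stimulated and 2 mock reads. Ets1 had 8 on its own strand, with 4 stimulated and 35 mock reads. The most-read, chr9:32540612-32541676, ended inside exon 5 and had 0 stimulated and 16 mock reads. Another, chr9:32541778-32560387, had 0 and 10 reads and lay 4 bases downstream of the junction that skips exon 6, with the same length. In the span of Runx2, 3 junctions lay on the opposite strand and shared 1 end, at 44874288, with 6 stimulated reads and 1 mock read.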
